A study of Mus musculus with 32 samples.

Results

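The genes described here make, carry, sense and remove retinoic acid, the hormone that cells derive from vitamin A. They are 9 of the 55487 genes in the deposited tables and were taken by symbol: Aldh1a1, Aldh1a2, Aldh1a3, Dhrs3, Stra6, Crabp1, Crabp2, Rarb and Cyp26b1. Each was read in all 32 libraries. The series asks how a graft of brown adipose tissue (BAT) acts on the supraspinatus, a muscle of the rotator cuff, after injury. Fibro-adipogenic progenitors (FAPs), mesenchymal cells that lie between the fibres, and satellite cells, its stem cells, were sorted from wild-type male C57BL/6J mice aged 12 weeks. Every muscle had received cardiotoxin, which kills muscle fibres and sets off their regeneration, so no uninjured muscle is among the groups. The 8 groups of 4 libraries are FAPs and satellite cells at day 3 and day 7, each from control muscle (cardiotoxin alone) and from BAT muscle, which was also given interscapular brown fat of a donor aged 3 weeks. Control and BAT muscle came from the same mouse, with 4 mice per day and 8 in all. In the labels both gates lack CD45 and CD31 and carry Sca1, and integrin alpha 7 marks the satellite cells.

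Retinoic acid is made in 2 oxidation steps, from retinol to retinal and from retinal to retinoic acid. The second step is carried out by the retinaldehyde dehydrogenases Aldh1a1, Aldh1a2 and Aldh1a3, and Dhrs3 runs the first step backwards, returning retinal to retinol. Stra6 is a membrane receptor that takes up retinol from its carrier in blood. Crabp1 and Crabp2 are small proteins that bind retinoic acid in the cytosol, and Crabp2 passes it on to nuclear receptors such as Rarb. Cyp26b1 oxidises retinoic acid and so ends its action. Rarb, Cyp26b1, Dhrs3, Stra6 and Crabp2 are known targets of retinoic acid in other tissues, so the list holds both makers of the signal and genes that respond to it. FAPs are known as the source of fibrous and fat tissue in injured muscle, and mesenchymal cells of many organs are known to make retinoic acid.

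The retinoic acid response element of Rarb is the textbook example of how its receptors bind DNA, and it is shown here because it is the kind of sequence through which a gene answers to the hormone. The receptors bind as a pair to a direct repeat of a half-site of 6 bases. The half-sites searched were AGGTCA or AGTTCA or GGGTCA or GGTTCA, repeated in the same direction with 5 bases or with 2 bases between them, on both strands of RefSeq promoter windows of 300 bases (250 before and 50 after the start, build GRCm38.p6). Of the 9 genes 7 had a window, with 13 windows in all, and 1 window, that of Rarb, held the repeat with 5 bases between. It occurred in 32 of all 32851 windows (0.0974%). In a wider list of 58 retinoid genes, of which 43 had a window, it was found for Cyp26a1, another enzyme of retinoic acid breakdown. The repeat with 2 bases between was in 0 of the 13 windows and in 88 of all windows (0.268%). Both stretches are printed 5′ to 3′ on the strand of their gene, with the repeat and the bases between its half-sites in capitals. The Rarb repeat lies at bases -53 to -37 from the RefSeq start. The Cyp26a1 repeat lies at bases -32 to -16 and was found on the opposite strand, so the letters printed are its reverse complement.
Rarb (chr14:16575507-16575535, minus strand): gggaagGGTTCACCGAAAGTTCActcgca
Cyp26a1 (chr19:37697770-37697798, plus strand): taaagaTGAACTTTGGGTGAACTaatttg
The Rarb stretch is upstream of this RefSeq start but inside the bounds of Rarb in GENCODE M21, where it overlaps an annotated exon. The Cyp26a1 stretch also overlaps an annotated exon of its gene, but is not wholly inside the bounds of that gene. A match to these letters is a description of the sequence and no measurement of binding.

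Library totals were 19776808 to 46378987 counts, with a median of 25664916, and levels are given in CPM, a gene's counts scaled to a common library total. Where no read was counted, the true level could still reach 0.0647 to 0.152 CPM, depending on the library (3 counts over its total, counting error only). Pdgfra, a growth factor receptor used as a FAP marker, had 251 to 436 CPM in the FAP libraries and 0.101 to 19.1 CPM in the satellite cell libraries. Pax7, the satellite cell factor, was at 0 to 1.20 CPM in FAPs and at 21.0 to 164 CPM in satellite cells, but Ly6a, which encodes Sca1, was at no more than 42.8 CPM in satellite cells against 426 to 1162 CPM in FAPs. The summed level of 18 macrophage and monocyte markers stood apart in 3 day 3 libraries: 5007 CPM in BAT FAPs replicate 1, 1798 CPM in control satellite cells replicate 3 and 2060 CPM in BAT satellite cells replicate 4, against 8.24 to 185 CPM in the other day 3 libraries. In the same 3 libraries Ptprc, which encodes CD45, was at 34.0, 9.91 and 10.3 CPM. The mouse of replicate 3 at day 7 had Xist at 163 to 355 CPM and Ddx3y at 0 in its 4 libraries, although the labels call the mice male. In bulk libraries fewer cells of a type and less RNA per cell cannot be told apart.

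In control muscle at day 3, 8 of the 9 genes were higher in FAPs than in satellite cells of the same mice and none was lower (edgeR quasi-likelihood test, adjusted p below 0.05), beside 35.9% of all genes higher and 35.8% lower. At day 7 it was again 8 of 9 higher and 0 lower, beside 22.6% and 22.5% of all genes. In BAT muscle 8 of 9 were higher at day 3 (35.4% of all genes higher, 31.1% lower) and 6 of 9 at day 7 (25.3% and 24.5%). The gene not called in any of these comparisons was Stra6, and Aldh1a1 and Rarb were the other 2 not called in BAT muscle at day 7. Without the mice of the macrophage-rich satellite cell libraries it was 8 of 9 at day 3 in both muscles, and without the day 7 mouse of replicate 3 it was 7 of 9 in both. The shares of all genes above are those of the fits with every mouse and do not apply to these counts. The 9 genes were chosen with earlier results of these data known, so all these counts are a description. Aldh1a2 and Cyp26b1 at day 3 and Crabp1 at day 7 did not pass the low-count filter in fits of satellite cells alone. They entered these comparisons through FAPs, where they were high, and could hardly have been called lower in FAPs. Within each day Aldh1a2, Aldh1a3, Dhrs3, Crabp1, Crabp2 and Cyp26b1 did not overlap between the 8 FAP and the 8 satellite cell libraries. With the days pooled, only Aldh1a2, Dhrs3 and Crabp1 did not overlap (16 libraries of each cell type). The share of all genes without overlap was not counted, so whether these genes are unusual in this cannot be told.

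**Figure D1:**
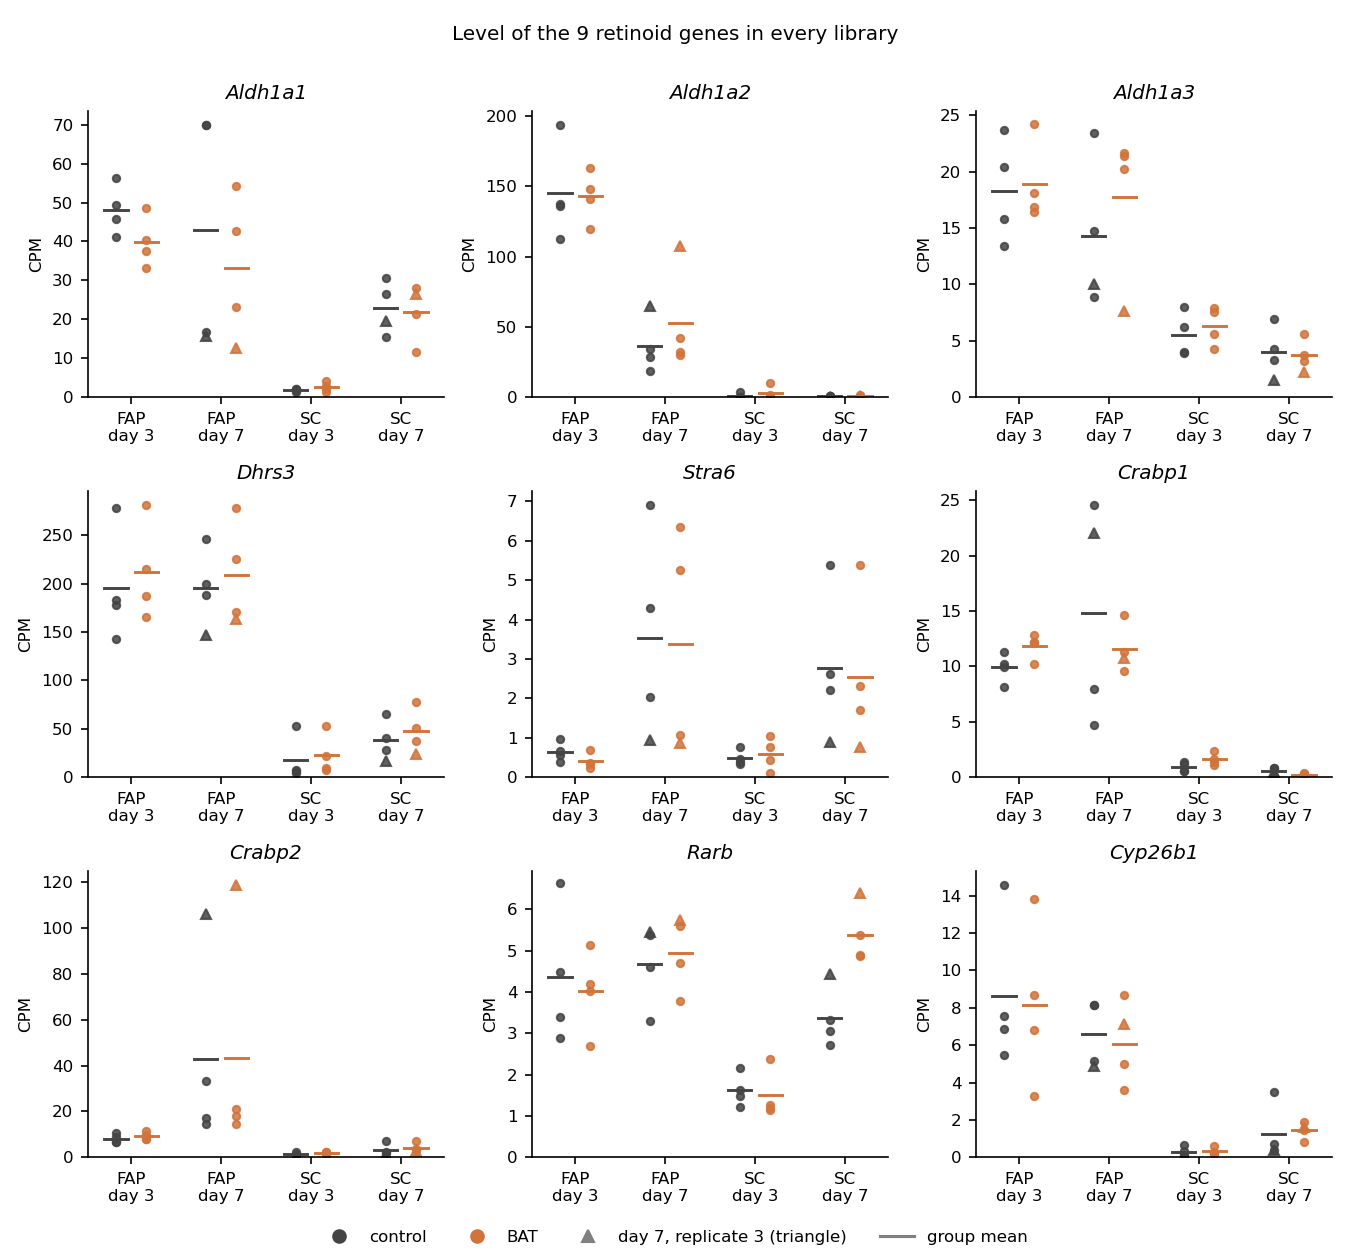
Level of each of the 9 genes in every library, in CPM on a linear axis from 0, by cell type and day (SC, satellite cells). Each point is 1 library, bars are means of 4, and triangles mark the mouse of replicate 3 at day 7. With the days pooled, FAPs and satellite cells do not overlap for Aldh1a2, Dhrs3 and Crabp1, and the share of all genes for which this holds was not counted. Crabp2 in FAPs at day 7 runs from 14.4 to 119 CPM.

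Aldh1a2, the main retinaldehyde dehydrogenase of the embryo, was the synthesis gene with the largest gap between the cell types. Replicates 1 to 4 of control FAPs at day 3 had 112, 194, 138 and 136 CPM, and those of BAT FAPs 141, 148, 163 and 119 CPM. At day 7 control FAPs had 28.4, 18.8, 64.6 and 34.5 CPM, and BAT FAPs had 30.2, 32.3, 108 and 42.2 CPM. The day 3 and day 7 ranges of FAPs did not overlap, and the mouse of replicate 3 was the highest at day 7 on both sides.

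In satellite cells Aldh1a2 was at 0, 0, 3.80 and 0 CPM in control and 0.0767, 1.31, 0 and 10.3 CPM in BAT muscle at day 3. At day 7 the 8 satellite cell libraries were at 0.481 to 1.31 CPM. The 2 day 3 libraries above 3 CPM are the satellite cell libraries with the high macrophage sum, and their sums of 10 FAP markers were 1338 and 3154 CPM, against 326 to 446 CPM in 5 of the other 6 and 1984 CPM in BAT replicate 2. FAP libraries of that day had 23115 to 37776 CPM for this list. The part of either marker list in the satellite cell values was not tested.

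The log2 difference of Aldh1a2 between FAPs and satellite cells was 8.16 ± 1.08 (SE) in control muscle at day 3 (edgeR adjusted p = 0.000413) and 5.73 ± 0.46 at day 7 (0.000132). The day 3 estimate rests on control satellite cell replicate 3: without that mouse no count of Aldh1a2 was left in the other 3 satellite cell libraries, and the level in FAPs (148 CPM) was at least 4668-fold that of satellite cells, taking 3 counts over the group as the floor (n = 3). The estimate was 7.50 without the mouse of satellite cell replicate 2 and 7.51 without the mouse as a block, and DESeq2 gave 13.56. In BAT muscle the differences were 7.08 ± 1.11 and 6.03 ± 0.39 (edgeR adjusted p = 0.00153 and 2.61e-05). Without BAT satellite cell replicate 4 and its mouse the day 3 difference in BAT muscle was 8.40, and it was 6.39 without the mouse of satellite cell replicate 1 and 6.44 without that of replicate 3. Without the block it was 5.86, and DESeq2 gave 8.84. All of these passed the test.

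Aldh1a1, the retinaldehyde dehydrogenase that also oxidises other aldehydes and marks stem cells in several tissues, was higher in FAPs at day 3 by more than at day 7. Control FAPs at day 3 were at 41.1, 49.4, 45.8 and 56.3 CPM in replicates 1 to 4, and control satellite cells at 1.82, 2.16, 2.22 and 1.28 CPM. At day 7 control FAPs were at 70.0, 16.7, 15.6 and 69.8 CPM and control satellite cells at 26.5, 15.4, 19.6 and 30.6 CPM. The 2 cell types were far apart at day 3 and overlapped at day 7, when FAP replicates 1 and 4 were above every satellite cell library and FAP replicates 2 and 3 were not. BAT muscle had 33.3 to 48.5 and 1.37 to 4.23 CPM at day 3. At day 7 its layout was the same as in control, with 42.6, 23.2, 12.5 and 54.3 CPM in FAPs and 21.4, 11.5, 26.4 and 28.1 CPM in satellite cells. The difference was 4.80 ± 0.13 on the log2 scale in control muscle at day 3 (edgeR adjusted p = 1.31e-06) and 4.15 ± 0.33 in BAT muscle (0.000119).

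At day 7 the difference of Aldh1a1 was 1.03 ± 0.29 in control muscle (edgeR adjusted p = 0.0244). This call was lost without the mouse of replicate 1 (adjusted p = 0.100), without that of replicate 4 (0.0974) and without the mouse as a block (0.0516). In BAT muscle it was 0.95 ± 0.37 and not called (0.0652), but without the mouse of replicate 3 it was 1.44 and called (3.67e-05). It was called also without the low-count filter (0.0111) and by DESeq2 (0.0172).

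Aldh1a3, the third enzyme of this step, was at 13.4 to 24.2 CPM in the 8 FAP libraries of day 3 and at 3.88 to 8.00 CPM in the 8 satellite cell libraries. At day 7 the ranges were 7.63 to 23.5 and 1.48 to 6.90 CPM. The cell types did not overlap within a day, and the highest satellite cell library of day 3 reached above the lowest FAP library of day 7. The log2 difference was 1.88 ± 0.23 at day 3 and 2.33 ± 0.38 at day 7 in control muscle (edgeR adjusted p = 0.000277 and 0.00244), and 1.78 ± 0.24 and 2.67 ± 0.20 in BAT muscle.

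To compare the 3 enzymes with each other their CPM were divided by the length of their annotated exons (4937 bases for Aldh1a1, 2264 for Aldh1a2, 4617 for Aldh1a3). Per kb, the 3 genes summed to 77.8 ± 16.7 CPM per kb (SD, n = 4) in control FAPs and 2.00 ± 1.27 in control satellite cells at day 3. Aldh1a2 took 82.1% ± 2.02 of the sum in FAPs, while Aldh1a3 took 66.6% ± 15.4 in satellite cells. At day 7 the sum was 28.0 ± 8.79 CPM per kb in control FAPs and 5.90 ± 1.39 in control satellite cells. Aldh1a2 then took 57.0% ± 19.4 in control FAPs, with single libraries from 39.4% to 84.3%, and 64.3% ± 18.8 in BAT FAPs (50.6% to 91.9%). In satellite cells Aldh1a1 took 78.8% ± 12.2 at day 7, after 22.5% ± 8.95 at day 3. The highest Aldh1a2 share of day 7 was that of replicate 3 in both groups of FAPs. These shares describe transcripts, and annotated length can differ from the transcripts present.

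**Figure D2:**
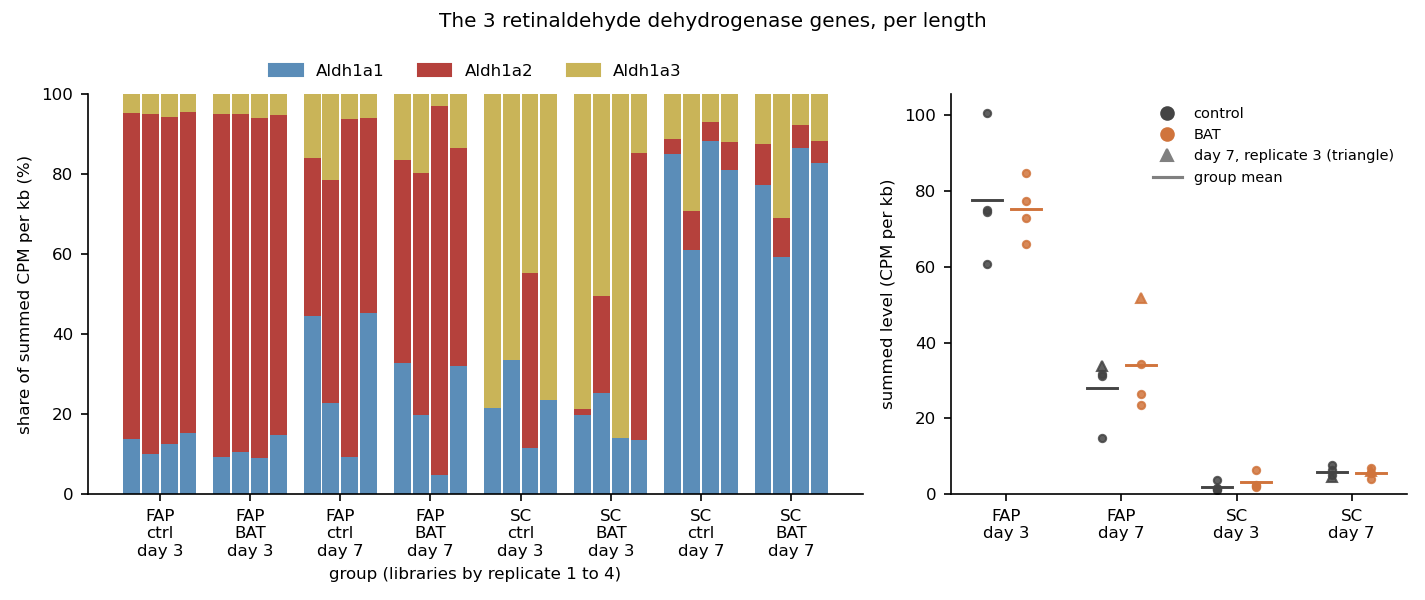
Left: share of Aldh1a1, Aldh1a2 and Aldh1a3 in their summed CPM per kb of exon, in percent, with 1 bar per library (SC, satellite cells; ctrl, control). Right: the summed level in CPM per kb, with points for libraries, bars for means of 4 and triangles for replicate 3 of day 7. Aldh1a2 holds most of the bar in FAPs at day 3 (82.1% in control) and Aldh1a1 in satellite cells at day 7 (78.8% in control).

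Dhrs3, which reduces retinal back to retinol, had group means of 195 to 212 CPM in FAPs and was called on neither side of the day or BAT comparisons there. Control FAPs were at 183, 143, 178 and 278 CPM at day 3 and at 188, 199, 147 and 246 CPM at day 7. BAT FAPs were at 282, 165, 187 and 215 CPM at day 3 and at 171, 278, 163 and 225 CPM at day 7. These 4 FAP groups overlapped with each other, and every FAP library was above every satellite cell library. In satellite cells Dhrs3 was at 7.20, 6.71, 53.2 and 4.16 CPM in control and 9.43, 22.0, 7.38 and 52.9 CPM in BAT muscle at day 3. At day 7 it was at 28.6, 65.8, 17.1 and 40.8 CPM in control and 50.6, 77.9, 23.6 and 37.7 CPM in BAT muscle. The 2 highest day 3 values again belong to the libraries with the high macrophage and FAP marker sums. The difference was 4.32 ± 0.50 on the log2 scale at day 3 and 2.92 ± 0.23 at day 7 in control muscle (edgeR adjusted p = 0.000219 and 0.000132). Without control satellite cell replicate 3 and its mouse it was 4.93 at day 3, and without the block 3.59. BAT muscle gave 3.79 ± 0.40 and 2.68 ± 0.19.

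Stra6, the retinol uptake receptor, was called between the days in control and BAT FAPs and in control satellite cells, but in no comparison of the cell types. Control FAPs were at 0.558, 0.966, 0.662 and 0.379 CPM at day 3 and 4.28, 6.92, 0.952 and 2.02 CPM at day 7. Control satellite cells were at 0.341, 0.474, 0.396 and 0.777 CPM at day 3 and 2.62, 5.38, 0.882 and 2.21 CPM at day 7. The same 2 mice, replicates 1 and 2, were highest at day 7 in both cell types, and replicate 3 was lowest. In control muscle the cell types differed by 0.70 ± 0.29 at day 7, which did not pass (edgeR adjusted p = 0.0840, unadjusted p = 0.0431), and they overlapped on both days. BAT muscle had 0.246 to 0.691 and 0.101 to 1.06 CPM in FAPs and satellite cells at day 3, and 0.863 to 6.34 and 0.756 to 5.37 CPM at day 7, with replicate 3 again lowest of day 7 in both.

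Both cytosolic binding protein genes were higher in FAPs in all 4 comparisons of the cell types. Crabp1 was at 8.19 to 12.8 CPM in the 8 FAP libraries of day 3 and at 0.548 to 2.33 CPM in satellite cells. At day 7 control FAPs spread over 4.69, 7.93, 22.0 and 24.6 CPM, BAT FAPs over 11.3, 9.55, 10.8 and 14.6 CPM, and no satellite cell library was above 0.871 CPM. The log2 difference in control muscle was 3.57 ± 0.31 at day 3 and 5.08 ± 0.44 at day 7 (edgeR adjusted p = 5.69e-05 and 0.000178). In BAT muscle it was 3.10 ± 0.18 and 6.10 ± 0.50.

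Crabp2, which hands retinoic acid to its nuclear receptors, had 6.65, 10.4, 8.82 and 6.59 CPM in control FAPs at day 3 and 16.9, 33.4, 106 and 14.4 CPM at day 7. BAT FAPs were at 7.78, 11.6, 9.67 and 7.78 CPM at day 3 and at 20.9, 18.1, 119 and 14.5 CPM at day 7. Every day 7 FAP library was above every day 3 FAP library, and replicate 3 was more than 3 times the next highest at day 7 in control and more than 5 times in BAT muscle. Satellite cells were at 0.911 to 2.42 CPM at day 3 and 1.56 to 7.09 CPM at day 7, with replicate 2 highest at day 7 in both groups. FAPs exceeded satellite cells by 2.54 ± 0.23 at day 3 and 3.83 ± 0.60 at day 7 in control muscle (log2, edgeR adjusted p = 7.07e-05 and 0.00206). Without replicate 3 and its mouse the day 7 difference was 3.09, and in BAT muscle it went from 3.25 ± 0.61 to 2.49. Both remained called.

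Rarb, the retinoic acid receptor that is itself induced through the repeat printed above, was low in all groups. Of its 5265 exon bases 1793 lie opposite exons of Top2b, a topoisomerase gene on the other strand, and whether the counting used strand was not given in the sources used here, so its reads and those of Top2b cannot be told apart there. Rarb had 2.89, 4.48, 3.39 and 6.65 CPM in control FAPs and 1.62, 1.49, 2.16 and 1.23 CPM in control satellite cells at day 3. At day 7 the values were 5.37, 4.61, 5.46 and 3.30 CPM in FAPs and 3.33, 3.05, 4.44 and 2.71 CPM in satellite cells. The cell types were apart at day 3 and overlapped at day 7, and Top2b was at 17.4 to 24.8 and 22.1 to 26.6 CPM at day 3 and at 17.4 to 44.4 and 34.2 to 52.1 CPM at day 7 in the same FAP and satellite cell groups. The difference was 1.49 ± 0.20 (edgeR adjusted p = 0.000439) at day 3 and 0.89 ± 0.25 (0.0221) at day 7. The day 7 call was lost without the mouse of replicate 1, 2 or 3 (adjusted p = 0.0941, 0.0728 and 0.0516). In BAT muscle FAPs had 2.70 to 5.15 CPM and satellite cells 1.15 to 2.38 CPM at day 3, a difference of 1.62 ± 0.35 (0.00597). At day 7 they had 3.77 to 5.73 and 4.88 to 6.40 CPM and were not called.

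Cyp26b1, the enzyme that clears retinoic acid, had 6.88, 7.54, 5.47 and 14.6 CPM in control FAPs and 0.0758, 0.345, 0.634 and 0.137 CPM in control satellite cells at day 3. At day 7 the values were 5.14, 8.13, 4.90 and 8.13 CPM and 0.409, 3.48, 0.401 and 0.681 CPM. FAPs were above satellite cells in every library of a day, and satellite cell replicate 2 stood above its group at day 7. That library also had the highest sum of the 10 FAP markers among satellite cells (11327 CPM, against 2468 to 6154 CPM in the other day 7 control satellite cells). Of that list, Pdgfra was at 7.01 CPM there, against 1.02 to 1.91 CPM in those others. Ly6a did not follow the sum, at 5.19 CPM against 4.30 to 9.30 CPM. The part of these markers in the values of that library was not tested. The log2 difference was 4.96 ± 0.40 at day 3 and 3.34 ± 0.48 at day 7 (edgeR adjusted p = 3.78e-05 and 0.00131), and 3.98 at day 7 without the mouse of replicate 2. BAT muscle had 3.27 to 13.8 and 0.192 to 0.589 CPM in FAPs and satellite cells at day 3 and 3.58 to 8.67 and 0.827 to 1.88 CPM at day 7, and gave 4.69 ± 0.39 and 2.50 ± 0.35.

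**Figure D3:**
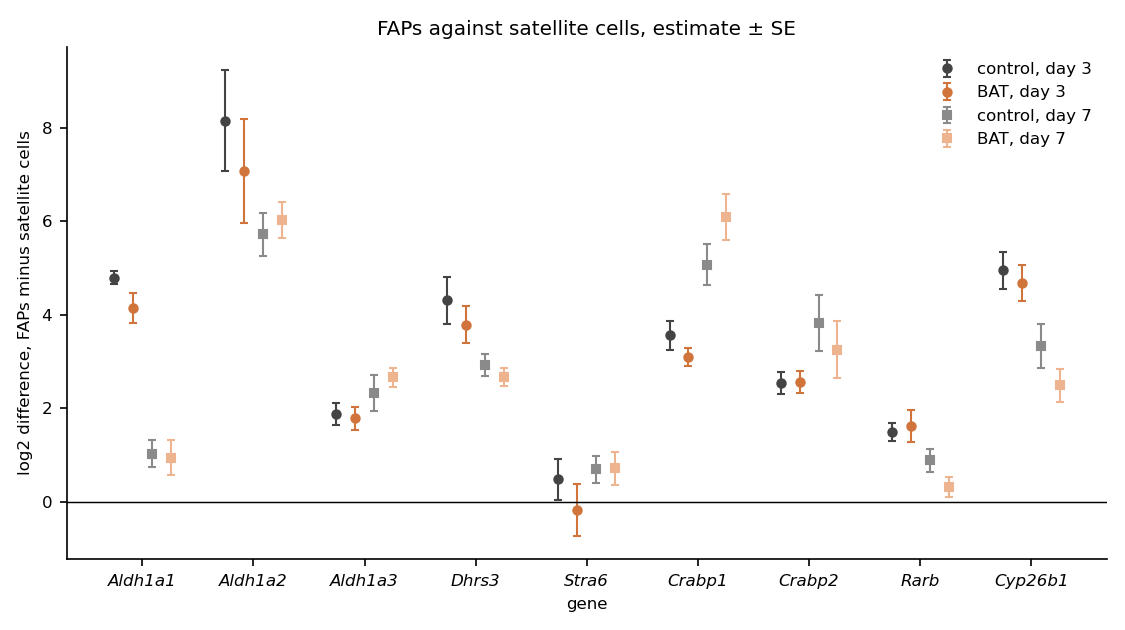
Log2 difference of each gene between FAPs and satellite cells of the same mice (edgeR estimate, bars ± SE, 4 mice each), in control and BAT muscle at day 3 and day 7. Points above 0 are higher in FAPs. Aldh1a1 drops from 4.80 to 1.03 between the control comparisons, while Stra6 is not called in any of the 4.

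Per kb of exon, the order of the 9 genes in control FAPs at day 3 was Dhrs3 (66.8 ± 19.8 CPM per kb, SD, n = 4) and Aldh1a2 (64.1 ± 15.3), then Crabp1 (12.4 ± 1.62), Aldh1a1 (9.75 ± 1.29), Crabp2 (6.14 ± 1.39), Aldh1a3 (3.97 ± 0.996), Cyp26b1 (1.61 ± 0.761), Rarb (0.827 ± 0.317) and Stra6 (0.110 ± 0.042). Dhrs3 and Aldh1a2 did not differ beyond their spread. At day 7 Dhrs3 was at 66.7 ± 13.9 CPM per kb, Crabp2 at 32.3 ± 32.5, Crabp1 at 18.5 ± 12.4 and Aldh1a2 at 16.1 ± 8.73. The last 3 overlapped each other. Crabp2 reached from 10.9 to 80.1 CPM per kb and so overlapped Dhrs3 (50.2 to 83.9) too, and without replicate 3, its highest library, it was at 16.3 ± 7.79 CPM per kb (SD, n = 3). Rarg, another receptor for retinoic acid, was at 4.82 ± 1.46 CPM per kb at day 3 and 9.70 ± 3.27 at day 7, above Rarb on both days.

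The wider list of 58 genes covers transport, storage, the oxidation steps, receptors, co-regulators, breakdown and other targets of the pathway. In control muscle at day 3, 41 were tested, of which 26 were higher and 10 lower in FAPs, with a median log2 difference of 0.72 beside -0.03 over all genes. Of all genes tested 35.9% were higher and 35.8% lower. At day 7 it was 18 higher and 9 lower of 41 (median 0.31 beside -0.05), beside 22.6% and 22.5% of all genes. BAT muscle had 22 higher and 9 lower of 40 at day 3 (0.67 beside 0.04), with 35.4% and 31.1% of all genes, and 18 higher and 7 lower of 41 at day 7 (0.39 beside -0.03), with 25.3% and 24.5%. The lists were chosen with results of these data known, so the counts are a description.

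Upstream of the dehydrogenases, 2 of 3 tested transport genes were higher and 1 was lower in FAPs of control muscle on both days. Rbp4, the carrier of retinol in blood, was higher in FAPs by 5.19 ± 0.35 in control muscle at day 3 (edgeR adjusted p = 1.72e-05) and 4.11 ± 0.33 at day 7. Adh1, an alcohol dehydrogenase that can oxidise retinol, was at 109 ± 15.8 CPM in FAPs and 1.49 ± 1.58 CPM in satellite cells at day 3 (SD, n = 4), a log2 difference of 6.59 ± 0.59 (5.90e-05). The highest of those satellite cell libraries was at 3.76 CPM, and without the mouse of satellite cell replicate 3, the macrophage-rich library, the difference was 7.50. At day 7 it was 5.04 ± 0.30. Adh7, of the same family, was higher by 3.45 ± 0.53 and 2.76 ± 0.26, and at day 3 by 4.06 without the mouse of satellite cell replicate 2. Of the 11 tested genes of retinol and retinal oxidation and reduction 7 were higher and 3 lower in FAPs at day 3, beside 35.9% and 35.8% of all genes, and 5 and 3 at day 7, beside 22.6% and 22.5%. Among the higher ones at low level were Rdh12 (2.98 ± 0.210 against 0.310 ± 0.261 CPM at day 3, 3.48 ± 0.61) and Dhrs9 (1.27 ± 0.259 against 0.217 ± 0.385 CPM, 3.44 ± 1.03). The Dhrs9 mean in satellite cells rests on replicate 3, the macrophage-rich library, at 0.792 CPM. Without its mouse the difference was 5.70 (edgeR adjusted p = 5.61e-05), and without any 1 of the other 3 mice the call was lost (0.0614 to 0.0717). DESeq2 gave 4.76 and the fit with no mouse block 2.75. At day 7 Dhrs9 had no count in the 4 control satellite cell libraries and was at least 62.3-fold higher in FAPs, with 3 counts over the group as the floor. Rbp7, a retinol-binding protein inside cells, was the reverse: no count in control FAPs at day 3 and at 1.09 ± 0.293 CPM in satellite cells. That level is at least 37.4-fold higher than in FAPs, by the same floor. At day 7 it was again lower in FAPs, with a log2 difference of -5.31 ± 0.85 (-7.01 without the mouse of replicate 2).

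Among receptors, 4 of 6 were higher and 1 lower in FAPs at day 3 in control muscle, beside 35.9% and 35.8% of all genes. Day 7 had 1 of 6 higher and 0 lower, beside 22.6% and 22.5% of all genes, so the higher count was near the share of all genes. Among the 9 tested targets 7 were higher and 1 lower on both days. Rarres2, the gene of the chemokine chemerin, was higher by 5.03 ± 0.33 at day 3 and 2.70 ± 0.32 at day 7 (edgeR adjusted p = 1.63e-05 and 0.000628). Meis2, a homeobox transcription factor, was higher by 4.36 ± 0.19 and 3.48 ± 0.35, and Rai14 at day 7 by 2.56 ± 0.19. Fabp5, which carries retinoic acid to another class of receptor, was lower in FAPs of control muscle on both days, at 51.7 ± 9.34 against 165 ± 51.4 CPM at day 3 (SD, n = 4; log2 differences -1.52 ± 0.20 and -2.09 ± 0.27). In BAT muscle its difference was -0.82 ± 0.32 at day 3, which did not pass (edgeR adjusted p = 0.0572), and -1.91 ± 0.30 at day 7, which did (0.00156). Cyp26a1 was lower in FAPs at day 3 (-1.38 ± 0.51, edgeR adjusted p = 0.0452) and stayed at or below 2.67 CPM in every library. That call was lost without the low-count filter (0.0579), with no mouse block (0.140) and without the mouse of satellite cell replicate 1, 2 or 4 (0.0512 to 0.166).

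Between day 3 and day 7 control FAPs lost Aldh1a2 and gained Crabp2 and Stra6, with 2 of the 9 genes called higher and 1 lower, beside 11.2% and 11.7% of all genes. The lower count was near the share of all genes. Different mice and different deposited tables stand behind the 2 days, so day cannot be told apart from either. Aldh1a2 changed by -1.96 ± 0.34 on the log2 scale (edgeR adjusted p = 0.00407), and by -2.39 without replicate 3 of day 7. Crabp2 changed by 2.45 ± 0.59 (0.0148), and by 1.50 (0.0111) without that library. Stra6 changed by 2.56 ± 0.62 (0.0156). Its call was lost without FAP replicate 4 of day 3 (0.0527), and its change was 1.89 without replicate 2 of day 7 (0.0356).

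BAT FAPs had the same 3 calls between the days, 2 higher and 1 lower, beside 10.3% and 12.6% of all genes. Here too the lower count was near the share of all genes. Aldh1a2 changed by -1.40 ± 0.38 (edgeR adjusted p = 0.0270), Crabp2 by 2.27 ± 0.65 (0.0316) and Stra6 by 3.11 ± 0.72 (0.0146). Without the day 7 library of replicate 3 the change of Aldh1a2 was -2.02 (0.000127) and that of Crabp2 0.98 (0.0125). The Aldh1a2 call was lost without replicate 2 or 3 of day 3 and without replicate 1, 2 or 4 of day 7 (adjusted p = 0.0609, 0.0630, 0.0735, 0.0627 and 0.0755). The Crabp2 call was lost without any 1 library of day 3 (0.0583 to 0.0802), and the Stra6 change was 2.50 without replicate 2 of day 7.

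Markers of cell types and of DNA synthesis also differed in level between the same FAP groups. In control FAPs the sum of the 10 FAP markers was 28636 to 37776 CPM at day 3 and 64476 to 104778 CPM at day 7, that of 6 tenocyte markers 1018 to 1574 and 1022 to 6490 CPM, that of 7 endothelial markers 8.51 to 14.3 and 12.2 to 41.6 CPM, and Tyms, a gene of DNA synthesis, was at 102 to 124 and 27.7 to 81.7 CPM. In BAT FAPs the FAP markers went from 28837 to 75909 CPM, the tenocyte markers from 1227 to 3507 CPM, the endothelial markers from 9.97 to 20.3 CPM and Tyms from 116 to 33.9 CPM, as medians over 4 libraries. Not every member of the FAP list followed its sum. In control FAPs the median of Pdgfra was 299 CPM on both days, and that of Ly6a was 860 and then 666 CPM. In BAT FAPs these medians went from 317 to 286 CPM and from 749 to 608 CPM. The part of all these markers in the day changes of the 9 genes and of the wider list was not tested.

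Of the wider list 4 genes rose and 2 fell of 41 in control FAPs (median log2 change 0.32 beside 0.08 over all genes), where 11.2% of all genes rose and 11.7% fell. In BAT FAPs 4 rose and 4 fell of 40 (0.13 beside 0.04), where 10.3% rose and 12.6% fell, so these counts are near or below the shares of all genes. Rarg rose in both, by 1.11 ± 0.28 and 1.16 ± 0.24 (edgeR adjusted p = 0.0191 and 0.00919), with the control call lost without either of 2 libraries (0.0593 to 0.0638). Fabp5 fell in both, with changes of -1.53 ± 0.45 and -2.04 ± 0.63. The control call of Fabp5 was lost without any 1 library but day 7 replicate 3 (0.0543 to 0.101), without which the change was -2.35. In BAT FAPs it was lost without any 1 of 6 libraries (0.0559 to 0.108) and was -1.34 without day 3 replicate 1, the macrophage-rich library, and -2.91 without day 7 replicate 3. Rbp4 fell in both too (-0.83 ± 0.25 and -1.16 ± 0.21), with the control call lost without any 1 of 6 libraries (0.0532 to 0.122). In control FAPs the lipases Pnpla2 (1.64 ± 0.27) and Lpl (1.25 ± 0.36) and the target Rarres2 (1.10 ± 0.28) rose. The Lpl call was lost without any 1 of 6 libraries (0.0682 to 0.0816) and that of Rarres2 without either of 2 (0.0521 to 0.0538). The other calls in BAT FAPs, Rdh11 (-0.71 ± 0.19), Rai14 (0.65 ± 0.15), Ncoa2 (0.56 ± 0.17) and Adh5 (-0.40 ± 0.13), were each lost without at least 1 library (the highest adjusted p was 0.0696, 0.0550, 0.102 and 0.137).

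Control satellite cells had 3 of the 9 genes called between the days, beside 29.7% of all genes higher and 29.8% lower. A count of 3 higher of 9 is near the share of all genes called higher. Aldh1a1 rose by 3.23 ± 0.26 on the log2 scale from day 3 to day 7 (edgeR adjusted p = 1.02e-05) and Stra6 by 2.17 ± 0.54 (0.00577). Rarb rose by 0.69 ± 0.27 (0.0472), with Top2b on the opposite strand at 24.0 ± 1.98 CPM at day 3 and 42.7 ± 7.37 CPM at day 7 (SD, n = 4). The Rarb call was lost without the low-count filter (adjusted p = 0.0860) and without any 1 of 5 libraries, namely replicates 1, 2 and 4 of day 3 and 1 and 3 of day 7 (0.0518 to 0.127). All 3 were higher at day 7. The sum of the 10 FAP markers in control satellite cells was 379 to 1338 CPM at day 3 and 2468 to 11327 CPM at day 7. In that list Pdgfra was at 0.228 to 13.9 and 1.02 to 7.01 CPM, and Ly6a at 2.38 to 32.5 and 4.30 to 9.30 CPM. Both overlapped between the days. The sum of 6 Schwann and glial markers was 19.7 to 69.0 CPM at day 3 and 124 to 751 CPM at day 7. For 8 pericyte and smooth muscle markers it was 747 to 1002 and 2746 to 4325 CPM, and for 6 tenocyte markers 22.8 to 97.7 and 65.6 to 596 CPM. The pericyte and smooth muscle list holds Des, which is also in the satellite cell and myogenic list. In the tenocyte list Scx went the other way, with means of 13.1 CPM at day 3 and 6.27 CPM at day 7. Tnmd of that list rose, from 3.04 to 59.4 CPM. In replicates 1 to 4 of day 7 the Schwann and glial sum was 562, 751, 124 and 424 CPM. The pericyte and smooth muscle sum was 2836, 4325, 2746 and 2831 CPM, and the tenocyte sum 593, 596, 65.6 and 543 CPM. Stra6 had the same order of libraries as each of these sums. The FAP marker sum had another order (5337, 11327, 2468 and 6154 CPM). The part of these markers in the day changes of the satellite cells was not tested. Of the wider list 15 genes rose and 4 fell of 38 (median 0.24 beside 0.03), with the 4 below the share of all genes given above. Rarres2 (3.12 ± 0.41), Rxrg (2.43 ± 0.56), Rbp7 (2.03 ± 0.36), Tgm2 (1.85 ± 0.62), Lipe (1.75 ± 0.33), Rarg (1.69 ± 0.24), Bhlhe40 (1.54 ± 0.38) and Ppard (1.42 ± 0.38) had the largest changes, all upward. Without day 3 replicate 3, the macrophage-rich library, Tgm2 was at 2.66, and its call was lost without any 1 of 4 other libraries (0.0699 to 0.0814).

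The difference between the day courses was tested in 1 model of the 16 control libraries. Aldh1a1 was called, with a difference of -3.79 ± 0.37 between the log2 change in FAPs and that in satellite cells (edgeR adjusted p = 0.000254), which is 1 of 9 genes beside 23.8% of all genes called in either direction. The count was below that share. The median of all genes in this comparison was -0.12, and -0.04 with another scaling. Dhrs3 (-1.43 ± 0.60), Crabp1 (1.48 ± 0.59), Rarb (-0.62 ± 0.28) and Cyp26b1 (-1.68 ± 0.71) had unadjusted p-values of 0.0384, 0.0314, 0.0497 and 0.0390 and did not pass (edgeR adjusted p = 0.113, 0.0984, 0.136 and 0.114). Without the day 3 mouse of satellite cell replicate 3, Dhrs3 was at -2.01 and called (0.00478). Without the day 7 mouse of replicate 2, Crabp1 was at 2.12 and called (0.0195), as it was by DESeq2 (1.64, 0.0288), and Cyp26b1 was at -0.97 (0.256). In the wider list 3 genes were higher and 8 lower of 42 (median -0.51), which is near the share of all genes, led by Rarres2 (-2.37 ± 0.54), Bhlhe40 (-1.65 ± 0.27) and Lipe (-1.62 ± 0.29) on the lower side and Pnpla2 (1.44 ± 0.18) on the higher. Meis1 (-0.81 ± 0.24) and Ncoa1 (-0.76 ± 0.22) were lower too, but their calls were lost without any 1 of 6 and 6 of the 8 mice (0.0570 to 0.0855 and 0.0548 to 0.0895). The Lipe call was lost with no mouse block (edgeR adjusted p = 0.0588).

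BAT changed none of the 9 genes past the test in either cell type on either day. In FAPs edgeR called 0 of 9 at day 3 (0.0188% of all genes in either direction) and 0 of 9 at day 7 (0% of all genes). In satellite cells it called 0 of 7 tested at day 3 (0% of all genes) and 0 of 8 at day 7 (0.0178%). Aldh1a2 and Cyp26b1 at day 3 and Crabp1 at day 7 did not pass the low-count filter in satellite cells. At an unadjusted p under 0.05 there were 730 and 783 genes in FAPs at day 3 and 7, 1 of the 9 each, and 472 and 1261 in satellite cells, 0 and 2 of the 9. DESeq2 called 40, 26, 0 and 39 genes in these 4 comparisons and none of the 9.

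Aldh1a2 in FAPs at day 7 was higher with BAT in 4 of 4 mice, by 16.6 ± 18.3 CPM (SD). Its values were 28.4, 18.8, 64.6 and 34.5 CPM in control and 30.2, 32.3, 108 and 42.2 CPM in BAT muscle for replicates 1 to 4, so the groups overlapped and replicate 3 was highest in both. The log2 difference was 0.50 ± 0.13 (unadjusted p = 0.00485, edgeR adjusted p = 0.953). Without the low-count filter the adjusted p was 0.0175, which is past the threshold, while the other alternatives gave 0.194 to 1.00. At day 3 it was higher with BAT in 2 of 4 mice. The difference of the BAT effect between the days was 0.48 ± 0.22 (unadjusted p = 0.0481, adjusted p = 1.00), with 0 of 9 genes and 0% of all genes called by edgeR. There, 579 genes had an unadjusted p under 0.05, 1 of the 9 among them, and DESeq2 called 1 gene, which was none of the 9.

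Aldh1a1 in FAPs at day 3 was lower with BAT in 4 of 4 mice, by 7.78 to 9.15 CPM. The values were 41.1, 49.4, 45.8 and 56.3 CPM in control and 33.3, 40.3, 37.5 and 48.5 CPM in BAT muscle, and the spread between mice was wider than the step within each mouse. The log2 difference was -0.25 ± 0.09 (unadjusted p = 0.0242, edgeR adjusted p = 0.957). At day 7 it was lower with BAT in 3 of 4 mice. Crabp1 and Crabp2 in FAPs at day 3 were higher in CPM with BAT in 4 of 4 mice, by 1.92 ± 0.835 and 1.08 ± 0.156 CPM (SD), with unadjusted p-values of at least 0.05.

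Rarb in satellite cells at day 7 was at 3.33, 3.05, 4.44 and 2.71 CPM in control and 4.88, 5.38, 6.40 and 4.89 CPM in BAT muscle. The 2 groups did not overlap, and BAT was higher in 4 of 4 mice. The log2 difference was 0.70 ± 0.20 (unadjusted p = 0.00542, edgeR adjusted p = 0.626), while Top2b on the opposite strand had 42.7 ± 7.37 and 42.5 ± 6.64 CPM (SD, n = 4). Dhrs3 in the same cells was higher with BAT in 3 of 4 mice, with a log2 difference of 0.37 ± 0.15 (unadjusted p = 0.0324, edgeR adjusted p = 0.638). Among the wider list BAT gave 0 calls of 40 and 41 tested in FAPs and of 37 and 40 in satellite cells at day 3 and 7.

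**Figure D4:**
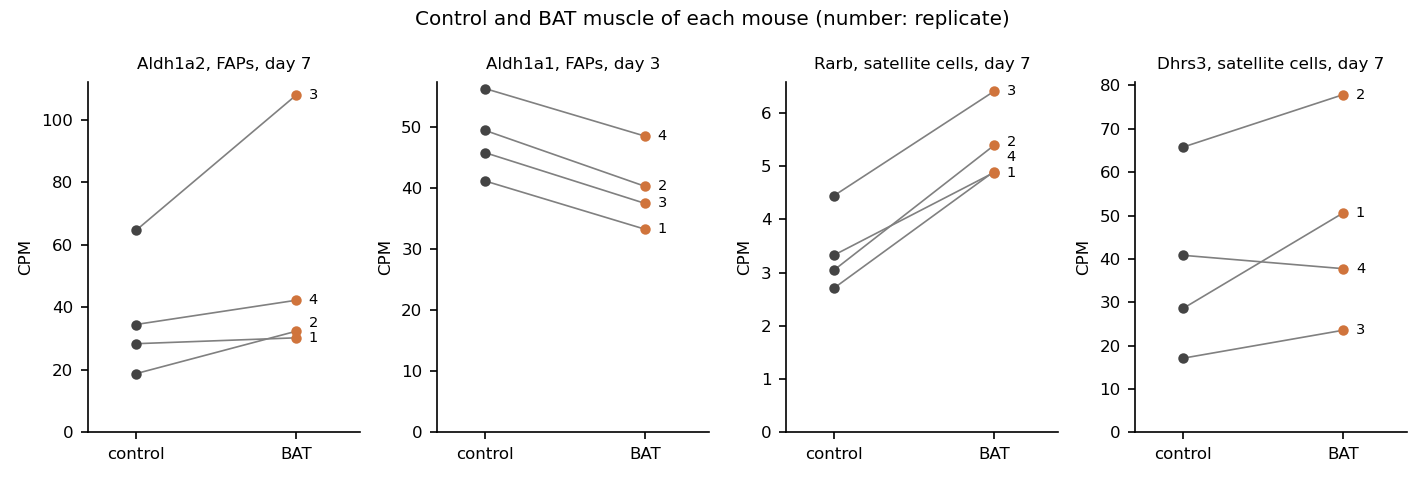
Control and BAT muscle of each mouse joined by a line, in CPM from 0, for the 4 gene and group pairs among the 9 genes with an unadjusted p under 0.05. Aldh1a2 in FAPs at day 7 and Rarb in satellite cells at day 7 are higher with BAT in all 4 mice, Aldh1a1 in FAPs at day 3 is lower in all 4, and Dhrs3 in satellite cells at day 7 is higher in 3. None passed the adjusted threshold.

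The day 7 mouse of replicate 3 lay at the end of the range for 6 of the 9 genes in FAPs of both muscles. The share of all genes for which this holds was not counted, so whether 6 of 9 is unusual cannot be told. In its control and BAT libraries Aldh1a2 was at 64.6 and 108 CPM and Crabp2 at 106 and 119 CPM, far above the other 3 mice, and Rarb at 5.46 and 5.73 CPM, just above them, while Aldh1a1 (15.6 and 12.5), Stra6 (0.952 and 0.863) and Dhrs3 (147 and 163) were below them. The sum of 6 tenocyte markers in its FAPs was 1022 and 646 CPM, against 3402 to 6490 CPM in the other day 7 FAP libraries. The 9 satellite cell and myogenic markers summed to 848 and 995 CPM against 209 to 637 CPM, and the 18 macrophage markers to 116 and 120 CPM against 28.3 to 55.7 CPM. Tyms, an enzyme of DNA synthesis, was at 81.7 and 92.0 CPM against 27.7 to 34.7 CPM. The part of these in the levels of the 9 genes was not tested.

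For each of the 9 genes with a mean of at least 5 CPM in FAPs, the genes with the most similar pattern were taken by Pearson's r of log2(CPM + 1) over the 16 FAP libraries, among 10648 genes at that level. These libraries come from 8 mice and 2 days, so day, mouse and library make-up are shared by all values. Aldh1a2 was followed most closely by Syce2 (r = 0.984), Tyms (0.969) and Npm1 (0.968). Syce2 was at 9.57 to 13.1 CPM at day 3 and 5.06, 3.70, 9.07 and 5.38 CPM in control FAPs at day 7, again with replicate 3 highest. Crabp2 had Kcnj15 (0.978), Porcn (0.957) and Col24a1 (0.956) as nearest, and Aldh1a1 had E330013P04Rik (0.956), Col4a5 (0.946) and Tm2d3 (0.925). Kcnj15, a potassium channel gene, was at 5.47, 12.5, 67.3 and 9.50 CPM in control and 6.97, 11.4, 81.7 and 6.17 CPM in BAT FAPs at day 7, so that replicate 3 stood apart as it did for Crabp2. The nearest genes were at lower r for Dhrs3 (Acad8 0.866, Atg7 0.806 and Secisbp2 0.800), Cyp26b1 (Prdm4 0.818, Spr 0.789 and Slit3 0.785), Aldh1a3 (Pfdn2 0.817, Ifngr2 0.806 and Kctd11 0.774) and Crabp1 (Mdfic 0.782, Pias2 0.767 and Raly 0.740). Rarb and Stra6 were below 5 CPM and were not compared.

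In the mm10 build 3 of the genes are on chromosome 9 and the other 6 on 6 other chromosomes. Aldh1a2 (ENSMUSG00000013584) is at chr9:71215789-71296243, Stra6 (ENSMUSG00000032327) at chr9:58063788-58153996 and Crabp1 (ENSMUSG00000032291) at chr9:54764748-54773110, all on the plus strand. The others are Aldh1a1 (ENSMUSG00000053279, chr19:20492715-20643465, plus), Aldh1a3 (ENSMUSG00000015134, chr7:66390890-66427517, minus), Dhrs3 (ENSMUSG00000066026, chr4:144892827-144928209, plus), Crabp2 (ENSMUSG00000004885, chr3:87948666-87953376, plus), Rarb (ENSMUSG00000017491, chr14:16430839-16819156, minus) and Cyp26b1 (ENSMUSG00000063415, chr6:84571414-84593908, minus). Rarb is the 1 gene of the 9 that shares exon bases with another gene in GENCODE M21.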

How the data were processed

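Per the labels' protocols, RNA of sorted cells was extracted on micro columns and made into cDNA with a low-input SMARTer kit. The authors deposited expected counts per gene, 1 table per day; the submitters' processing notes name DRAGEN and the mm10 build. Tool versions, the annotation, strand use and the handling of multi-mapping reads were not given in the sources used here. Of the values above 0, 71.8% were whole. The expected counts were rounded to whole numbers, and 287 repeated entries per table were removed. Of the 55487 gene identifiers 55141 matched GENCODE M21, which gave exon lengths and places.

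CPM used the expected counts and library totals before rounding, and the fits used the rounded counts. Tests used edgeR's quasi-likelihood F test (edgeR 4.0.16, limma 3.58.1, R 4.3.3) with TMM scaling and filterByExpr (at least 10 counts, 15 in all), fitted over all genes of the groups compared and adjusted by Benjamini-Hochberg, with an adjusted p below 0.05 called. Log2 differences are edgeR estimates ± SE. The mouse was a block within a day and not between days. Alternatives were RLE scaling, no filter, DESeq2 1.42.0, the block added or removed, each library or mouse left out, and TMM-scaled levels. The tests were tested on simulated data. Python 3.11, pandas 2.3.3, numpy 2.4.6 and matplotlib 3.10.9 made the levels and figures.

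Control and BAT muscle, and both cell types, were paired by the mouse code in the labels. On day 3 the replicate numbers of the cell types differ (FAP replicates 1 to 4 are the mice of satellite cell replicates 4, 1, 2 and 3), and libraries with no code were taken as 1 mouse. The deviations of the control and BAT libraries of a mouse from their group means correlated at r = 0.0841 (FAPs) and -0.0916 (satellite cells) on day 3 and 0.395 and 0.292 on day 7, over 4 pairs and 19123 genes. Between FAPs and satellite cells of control muscle the mean r was 0.0494 on day 3 and 0.215 on day 7. The day 3 values were small and of either sign, so the pairing of that day rests on the labels. No 2 libraries of a group were as alike as sampling noise would make them (chi-square over its degrees of freedom at least 17.1 in 48 pairs). The 9 genes, the wider list and the marker lists were chosen with earlier results of these data known. Genes of the wider list are named where called, up to the 8 largest per comparison (some are not reported here), and the 3 nearest genes by pattern are named for each of the 9.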

Additional observations from a re-analysis of the deposited data

Results flagged for a closer look

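In groups of 4, a library was set apart where its gap to the nearest other, as a share of the group's range, exceeded Dixon's 95% critical value. Of 72 groups (9 genes in 8 groups) 10 held such a library, where chance gives about 1 in 20 groups. In BAT FAPs at day 7 replicate 3 was apart for Aldh1a2 (108 CPM, highest), Crabp2 (119 CPM, highest) and Aldh1a3 (7.63 CPM, lowest). It is the mouse with Xist counts. Control satellite cells replicate 3 at day 3 was highest for Aldh1a2 (3.80 CPM) and Dhrs3 (53.2 CPM), and BAT satellite cells replicate 4 at day 3 for Aldh1a2 (10.3 CPM), and both are libraries with a high macrophage marker sum. Control satellite cells replicate 2 at day 7, which has the highest FAP marker sum of its cell type, was highest for Crabp2 (7.09 CPM) and Cyp26b1 (3.48 CPM). The other 2 were Rarb in BAT satellite cells replicate 2 at day 3 (2.38 CPM) and Aldh1a2 in BAT satellite cells replicate 1 at day 7 (1.31 CPM).

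The day course of Aldh1a1 differed between the cell types of control muscle, with a log2 difference of -3.79 (edgeR adjusted p = 0.000254), and Aldh1a1 was at 48.2 ± 6.38 and 43.0 ± 31.0 CPM in FAPs and at 1.87 ± 0.430 and 23.0 ± 6.80 CPM in satellite cells at day 3 and day 7 (SD, n = 4).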

How the results depend on the processing

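For the values with an unadjusted p under 0.05 (51 values of the 9 genes, 467 refits), 436 refits kept direction and call, 24 lost the call, 7 gained it and 0 changed sign. Of the other 63 values 56 of 620 refits changed sign and 4 became called. Counts of called genes moved most in the BAT comparisons. In FAPs at day 3 edgeR called 3 genes, 63 without the filter, 40 by DESeq2, 0 with no replicate block and 0 to 27 with 1 mouse left out. In FAPs at day 7 it called 0, 145 without the filter (1 of the 9 genes), 26 by DESeq2 and 0 to 1 with a mouse left out. In satellite cells at day 7 it called 3, 206, 39, 0 with no replicate block and 0 to 14. For the BAT effect between the days the counts were 0, 100, 1 and 0 to 1. Between the days, BAT FAPs had 3686 genes, 2231 with the replicate number as a block and 1890 to 4696 with 1 library left out, and control FAPs 3692 and 1979 to 4617. Of the 9 genes, those higher at day 7 in BAT FAPs went from 2 to 1 with DESeq2, which gave Crabp2 no adjusted p, and to 1 with the replicate block (Crabp2, 1.62, edgeR adjusted p = 0.0609) and were 1 to 2 with a library left out, while those lower were 0 to 1. The ranges were 1 to 2 higher in control FAPs, and 2 to 5 higher and 0 to 1 lower in control satellite cells, where the block ended the Rarb call (adjusted p = 0.0577). In the day course, DESeq2 called 1 higher and 2 lower, and leaving out a mouse gave 0 to 1 and 1 to 3. The cause of these moves was not tested. With TMM over all libraries 70 of 72 group means moved by under 1 SD, the others being Crabp1 in BAT FAPs at day 3 (13.0) and Rarb in BAT satellite cells at day 7 (4.58). For the 163 called values of the wider list, 1304 of 1480 refits kept the call, 176 lost it and 0 changed sign. Levels of Aldh1a2 and Crabp1 in single satellite cell libraries were at 0, below the 0.0647 to 0.152 CPM that 3 counts give.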
